A study of Mus musculus with 12 samples.

Results

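Secreted organisers of synapses from the C1q-like, cerebellin and neuronal pentraxin families were followed in mouse hippocampal neurons maturing in culture. The 8 genes, *C1ql2*, *C1ql3*, *Cbln1*, *Cbln2*, *Cbln4*, *Nptx1*, *Nptx2* and *Nptxr*, out of 20358 genes measured, were chosen by their course over time in these same arrays. Their courses are therefore described without a test. All 8 genes were measured, by array probesets that the probe annotation assigns to that gene symbol alone. The gene values use the more variable part of these probesets, and no gene was left out for a low value.

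The neurons came from hippocampi of RjOrl:SWISS mouse embryos at embryonic ages e17.5-18.5 (days of gestation), with no experimental treatment, and the sex of the embryos is not given in the sources used here. RNA was measured on 12 Affymetrix Mouse Gene ST arrays at 6 ages of the culture (0, 1, 3, 6, 12 and 15 DIV, for days in vitro), with 1 array a time for each of the 2 replicate cultures, which the methods call independent. The methods give 20 h for the time that is called 1 DIV. At this time the array titles read 1 DIV for culture 1 and 20 h for culture 2. All cultures kept beyond 3 DIV had received 1 µM cytosine arabinoside at 3 DIV, a nucleoside analogue that acts on dividing cells, so its effect and that of time cannot be told apart at 6, 12 and 15 DIV.

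Many synapses are organised by proteins that neurons release into the cleft. C1q-like proteins and cerebellins are secreted relatives of the complement subunit C1q, and bridge receptors on opposite sides of the cleft. Neuronal pentraxins gather AMPA-type glutamate receptors at excitatory synapses. NPTX1 and NPTX2 are secreted, whereas the neuronal pentraxin receptor NPTXR is anchored in the membrane and forms complexes with them.

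The courses of *C1ql2* and *C1ql3* were the most alike among the 8 genes (Pearson's r = 0.924 over 12 arrays), and their promoters are shown for that reason. RefSeq promoters were used for 3 of the 8 genes (*C1ql2*, *C1ql3* and *Cbln4*). The 250 bases before the gene start are printed 5′ to 3′ on the strand of the gene (build GRCm38.p6), at chr1:120340332-120340581 on the plus strand for *C1ql2* and chr2:13010865-13011114 on the minus strand for *C1ql3*, with GC boxes in capitals.
C1ql2: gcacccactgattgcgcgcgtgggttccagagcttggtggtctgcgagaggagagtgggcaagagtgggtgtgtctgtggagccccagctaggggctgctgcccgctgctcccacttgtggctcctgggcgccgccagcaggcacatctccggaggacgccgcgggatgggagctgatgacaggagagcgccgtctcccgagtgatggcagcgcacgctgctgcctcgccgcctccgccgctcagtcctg
C1ql3: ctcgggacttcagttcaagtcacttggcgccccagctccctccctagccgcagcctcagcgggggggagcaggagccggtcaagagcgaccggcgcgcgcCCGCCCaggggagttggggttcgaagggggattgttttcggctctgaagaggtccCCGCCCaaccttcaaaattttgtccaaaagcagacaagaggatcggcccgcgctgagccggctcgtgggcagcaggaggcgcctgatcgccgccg
The 2 windows were rich in G and C, at 68.8% for *C1ql2* and 66.4% for *C1ql3*, where the median of 32851 promoters was 52.4%. The window of *C1ql3* held 2 GC boxes (GGGCGG on either strand, present in 32.7% of all promoters), and that of *C1ql2* held none. The motif set was chosen with the array values known. It also held the cyclic AMP response element TGACGTCA (1.55% of promoters), the AP-1 site TGANTCA (6.75%), the E-box CACGTG (6.02%), the CCAAT box (33.8%), the TATA box TATAAA (12.4%) and the CHOP-ATF4 composite site TGATGNAAT (0.816%), searched on both strands. None of these 6 was found in either window, which says only that these letters are not there. The window of *Cbln4* (60.8% G and C, not shown) held 2 GC boxes that overlap and 1 CCAAT box.

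Levels are given on the log2 scale of robust multi-array average (RMA) values, on which a step of 1 is a 2-fold difference. They have no detection call, and each gene was read by its own probes, so levels of different genes are not compared. The 8 genes had a median difference of 1.34 (log2) between 15 and 0 DIV, against 0.01 over all genes. By limma at an adjusted p of 0.05, 16.4% of all 20358 genes were higher at 15 DIV than at 0 DIV and 8.43% were lower. By the F test 22% changed over time. The 8 genes were selected on this course, so their own calls are not counted.

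**Figure D1:**
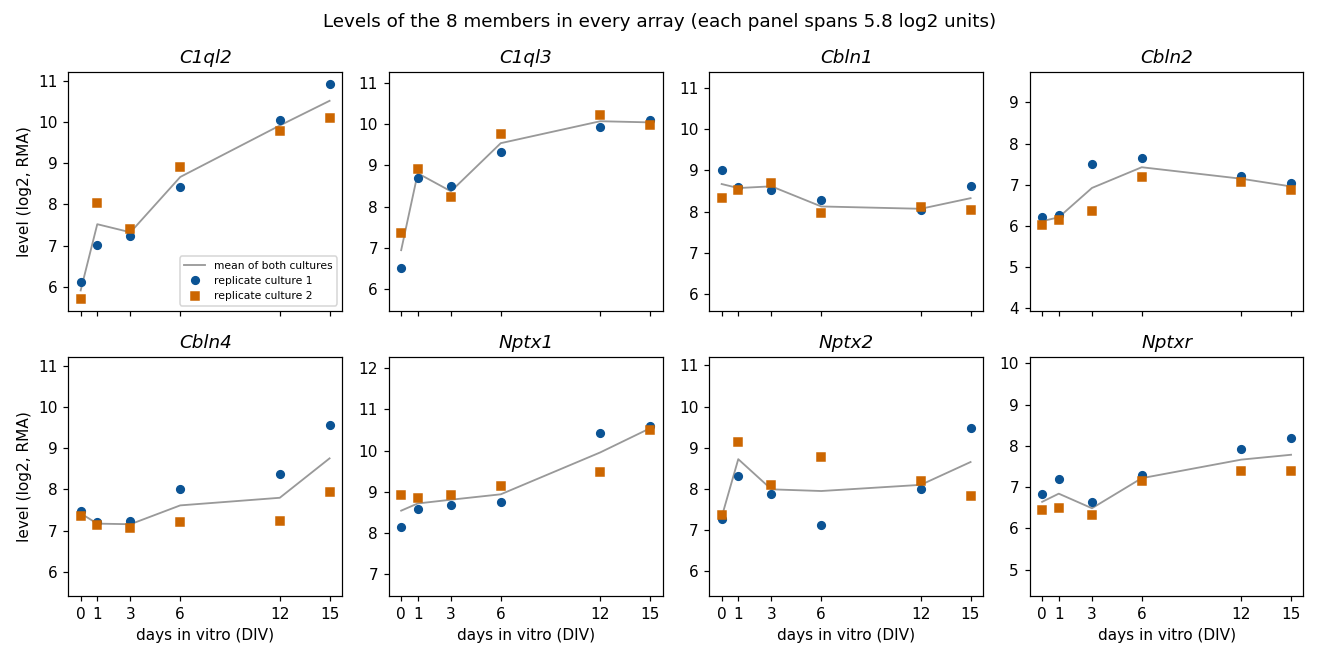
Level of each of the 8 genes in every array (log2, RMA) against days in vitro, with circles for replicate culture 1, squares for replicate culture 2 and a line for their mean. Each panel spans the same number of log2 units. C1ql2 ran from 5.70 and 6.12 at 0 DIV to 10.10 and 10.93 at 15 DIV, Cbln1 stayed between 7.98 and 9.01, and the Nptx2 cultures parted at 6 and 15 DIV.

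*C1ql2* had the largest difference of the 8 genes. It encodes a C1q-like protein that, in mice, dentate granule cells release from their mossy fibre terminals. Its level was 6.12 in culture 1 and 5.70 in culture 2 at 0 DIV, 7.02 and 8.02 on day 1, and 7.24 and 7.41 on day 3. It was 8.42 and 8.91 on day 6, 10.04 and 9.79 on day 12, and 10.93 and 10.10 on day 15. Both cultures were lowest at 0 DIV and highest at 15 DIV. In the order of levels, 0, 3, 1, 6, 12 and 15 DIV, only the neighbours 3 and 1 DIV overlapped. The level at 15 DIV exceeded that at 0 DIV by 4.60 ± 0.36 (log2 difference ± SE, n = 2 arrays a time). Both 0 DIV values lay below the median level of their arrays (7.40 and 7.35). In this bulk RNA, a change in the share of cells that express a gene and a change in RNA per cell cannot be told apart.

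The course of *C1ql2* came in steps. The first step, from 0 to 1 DIV, was 1.61 on the log2 scale (0.89 in culture 1 and 2.32 in culture 2). From 1 to 3 DIV the cultures went opposite ways, by 0.22 in culture 1 and -0.62 in culture 2. The steps from 3 to 6 DIV (1.34) and from 6 to 12 DIV (1.25) were upward in both cultures.

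*C1ql3*, which encodes a close relative of C1QL2 also released at mossy fibre terminals, reached its plateau earlier. Its level was 6.52 in culture 1 and 7.37 in culture 2 at 0 DIV, 8.70 and 8.92 on day 1, and 8.51 and 8.24 on day 3. It was 9.32 and 9.75 on day 6, 9.93 and 10.22 on day 12, and 10.10 and 9.98 on day 15. The values of 12 and 15 DIV overlapped, and those of all other neighbours in the order of levels were apart. The first step, from 0 to 1 DIV, was 1.87 on the log2 scale, which was 60.2% of the whole difference of 3.10 ± 0.25, against 34.9% for *C1ql2*. From 1 to 3 DIV *C1ql3* went down in both cultures, by 0.19 in culture 1 and 0.68 in culture 2.

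The probesets of both C1q-like genes went up, though by unequal amounts. All 4 probesets of *C1ql2* were higher at 15 DIV than at 0 DIV, by 0.48 to 4.94 on the log2 scale, and all 4 of *C1ql3* by 2.08 to 3.28. The gene value rests on the probesets that varied most over these arrays, 2 of 4 in both genes. With all probesets the difference was smaller, 2.83 for *C1ql2* and 2.54 for *C1ql3*, as it was for 7 of the 8 genes. The exception was *Cbln1* (-0.47, against -0.34).

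**Figure D2:**
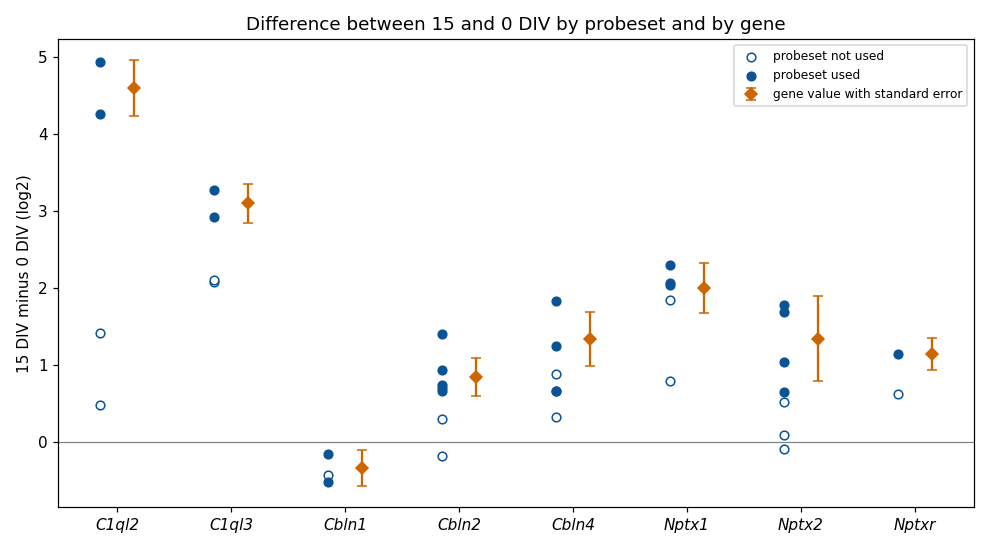
Difference between 15 and 0 DIV (log2) of every probeset of the 8 genes, filled where the probeset entered the gene value and open where it did not, with the gene value and its standard error as a diamond. The probesets of C1ql2 spread from 0.48 to 4.94, all 3 of Cbln1 lay below 0, and 1 of 7 in both Cbln2 and Nptx2 lay below 0.

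The cerebellins split into separate courses. *Cbln1*, the cerebellin that joins parallel fibres to Purkinje cells in the cerebellum, moved least. Its level was 9.01 in culture 1 and 8.34 in culture 2 at 0 DIV, 8.61 and 8.54 on day 1, and 8.53 and 8.70 on day 3. It was 8.28 and 7.98 on day 6, 8.03 and 8.11 on day 12, and 8.62 and 8.03 on day 15. All 5 pairs of neighbours in the order of levels overlapped. The difference between 15 and 0 DIV was -0.34 ± 0.24 (log2 ± SE), and all 3 probesets lay between -0.53 and -0.16.

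*Cbln2*, a cerebellin of forebrain neurons that binds neurexins, peaked in the middle of the course. Its level was 6.21 in culture 1 and 6.03 in culture 2 at 0 DIV, 6.28 and 6.15 on day 1, and 7.49 and 6.35 on day 3. It was 7.65 and 7.20 on day 6, 7.22 and 7.07 on day 12, and 7.05 and 6.87 on day 15. These levels lay below the median level of the array, except in culture 1 at 6 DIV (7.65 against 7.52). Both cultures were lowest at 0 DIV and highest at 6 DIV, where the level stood 1.31 ± 0.25 (log2 ± SE) above that at 0 DIV, against 0.84 ± 0.25 at 15 DIV. In the order of levels 3 of 5 pairs of neighbours overlapped, 6 and 12 DIV among them. The step from 1 to 3 DIV was 1.22 (log2) in culture 1 and 0.21 in culture 2, and that from 3 to 6 DIV was 0.16 and 0.85. In 6 of 7 probesets the value at 15 DIV was higher than at 0 DIV in both cultures, and the 7 ranged from -0.19 to 1.39.

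*Cbln4*, a cerebellin that binds DCC and neogenin besides neurexins and that somatostatin interneurons express in mouse cortex, was the late gene of the family. Its level was 7.48 in culture 1 and 7.35 in culture 2 at 0 DIV, 7.20 and 7.14 on day 1, and 7.24 and 7.07 on day 3. It was 8.02 and 7.20 on day 6, 8.37 and 7.23 on day 12, and 9.57 and 7.94 on day 15. Both cultures were highest at 15 DIV, and culture 1 lay higher at all 6 times. In the order of levels 4 of 5 pairs of neighbours overlapped, 12 and 15 DIV among them. The difference between 15 and 0 DIV was 2.09 (log2) in culture 1 and 0.58 in culture 2, with a fitted value of 1.34 ± 0.35 (SE). In all 6 probesets culture 1 was the higher at 12 DIV and at 15 DIV, a look made after the gene values were seen. Without the 15 DIV array of culture 1 the difference was 0.75, and without that of culture 2 it was 1.92.

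The secreted pentraxin *Nptx1* was highest at the late times. Its level was 8.16 in culture 1 and 8.93 in culture 2 at 0 DIV, 8.60 and 8.84 on day 1, and 8.69 and 8.93 on day 3. It was 8.75 and 9.13 on day 6, 10.43 and 9.49 on day 12, and 10.60 and 10.49 on day 15. The first 4 times overlapped with their neighbours in the order of levels, whereas 12 DIV and 15 DIV each stood apart. The step from 6 to 12 DIV was 1.68 (log2) in culture 1 and 0.36 in culture 2, and the step from 12 to 15 DIV was 0.17 and 1.00, so that both cultures arrived at nearly the same level. The difference between 15 and 0 DIV was 2.00 ± 0.33 (log2 ± SE), or 4.00-fold, and all 5 probesets lay between 0.79 and 2.30.

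*Nptx2*, also known as Narp and induced by neuronal activity, read unlike in the 2 cultures. Its level was 7.27 in culture 1 and 7.37 in culture 2 at 0 DIV, 8.31 and 9.14 on day 1, and 7.89 and 8.10 on day 3. It was 7.13 and 8.77 on day 6, 8.01 and 8.19 on day 12, and 9.48 and 7.83 on day 15. Both cultures were higher at 1 DIV than at 0 DIV and lower again at 3 DIV. The step from 3 to 6 DIV was -0.76 in culture 1 and 0.68 in culture 2 (log2), and that from 12 to 15 DIV was 1.48 and -0.37. All 5 pairs of neighbours in the order of levels overlapped, and the levels of the cultures over the 6 times had r = -0.05, a description that rests on 6 points.

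The difference of *Nptx2* between 15 and 0 DIV hangs on single arrays. It was 1.34 ± 0.55 (log2 ± SE), 0.21 without the 15 DIV array of culture 1 and 2.46 without that of culture 2, and 0.58 with all 7 probesets. The gap between the cultures was shared by the probesets, which were looked at after the gene values were known. Culture 1 was the higher in all 7 probesets at 15 DIV, and culture 2 in 5 of 7 at 6 DIV and 6 of 7 at 1 DIV. With 1 array per culture and time, a different course of the cultures could not be tested.

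*Nptxr*, the membrane-anchored partner of both pentraxins, was highest at 12 and 15 DIV. Its level was 6.83 in culture 1 and 6.45 in culture 2 at 0 DIV, 7.19 and 6.49 on day 1, and 6.64 and 6.33 on day 3. It was 7.29 and 7.15 on day 6, 7.93 and 7.40 on day 12, and 8.19 and 7.38 on day 15. These levels lay below the median level of the array, except in culture 1 at 12 and 15 DIV. Both cultures were lowest at 3 DIV, and 4 of 5 pairs of neighbours in the order of levels overlapped. The difference between 15 and 0 DIV was 1.14 ± 0.20 (log2 ± SE). The value rests on 1 of 2 probesets. The other differed by 0.62 between 15 and 0 DIV, and 7 more probesets were left out because the annotation gives them several symbols.

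The difference between the replicate cultures was a contrast that the choice of these genes did not use. The methods adjusted each gene for experimental batches, by the date of the experiment. The labels do not say which arrays shared a date. A gap between cultures, here or elsewhere in this text, therefore cannot be told apart from a batch effect. Averaged over the 6 times, 1 of the 8 genes differed between cultures at an adjusted p of 0.05 by limma, where 7.64% of all genes did. That gene was *Nptxr*, which lay lower in culture 2 at 6 of 6 times, by 0.48 ± 0.12 (log2 ± SE, adjusted p = 0.037). With both of its probesets the difference was 0.032 (adjusted p = 0.88), and the 2 probesets set the cultures in opposite orders at every time. The adjusted p was above 0.05 in 14 of 18 alternative settings, among them all 12 that left out 1 array. *Cbln4* was lower in culture 2 by 0.66 ± 0.20 (adjusted p = 0.073) and *Cbln2* by 0.37 ± 0.15 (adjusted p = 0.14), both at 6 of 6 times.

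Over the 6 times the 2 cultures followed each other most closely for *C1ql3* (r = 0.958), *C1ql2* (0.936) and *Nptxr* (0.915). They did so less for *Cbln4* (0.875), *Nptx1* (0.868), *Cbln2* (0.765) and *Cbln1* (0.381). Among the 28 pairs of the 8 genes, r over the 12 arrays had a median of 0.47 and ran from -0.71 (*C1ql3* with *Cbln1*) to 0.92 (*C1ql2* with *C1ql3*), with 8 pairs below 0. The arrays share times and cultures, so these values only describe.

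The genes most like each member were taken as the 3 with the highest Pearson's r over the 12 arrays, among 11810 genes whose values spanned at least 1 (log2). For *C1ql2* they were *Rit1* (0.983), *Agpat3* (0.976) and *Pxmp4* (0.975). For *C1ql3* they were *Slc4a10* (0.985), which encodes a bicarbonate transporter of neurons, *Gphn* (0.979), which encodes gephyrin, the scaffold of inhibitory synapses, and *Tom1* (0.975). *Nptx1* ran with *Baiap2* (0.969), which encodes the postsynaptic protein IRSp53, with the clock repressor *Nr1d1* (0.965) and with the transcription factor *Nfatc2* (0.961).

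The cerebellins had other neighbours. *Cbln2* ran with *Cntn6* (0.976), which encodes a contactin, *Ctsc* (0.954) and *Brinp3* (0.949), and *Cbln4* with *Tmem100* (0.964), *Efhd1* (0.959) and *S100a13* (0.941). *Cntn6* had the gap between cultures of *Cbln2* on day 3, where it read 7.25 in culture 1 and 5.41 in culture 2. *Tmem100* had the gap between cultures of *Cbln4* on day 12, with 7.77 and 6.42, and on day 15, with 8.23 and 7.03. Both genes were picked by correlation over these same arrays, so the shared gaps are no separate observation. *Cbln1* had no gene above 0.881, reached by *Midn*, followed by *Anp32a* (0.874) and *Scarna17* (0.866). *Nptxr* ran with *Lamp5* (0.957), a marker of a class of interneurons, *Lif* (0.953) and *Tlr3* (0.949).

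*Nptx2* ran with *Ddit3* (0.926), *Stc2* (0.889) and *Mars1* (0.879). *Ddit3* encodes the stress-induced transcription factor CHOP, *Stc2* the secreted stanniocalcin 2, and *Mars1* the methionyl-tRNA synthetase. *Ddit3* read 9.07 in culture 1 and 9.82 in culture 2 on day 6, then 10.58 and 9.01 on day 15. *Stc2* read 7.57 and 9.17 on day 6, then 9.03 and 8.28 on day 15. Both therefore had the order of cultures that *Nptx2* had at these times. They were picked for their correlation with *Nptx2* over these same arrays, so the shared order is no separate observation. Like *Nptx2*, *Ddit3* and *Stc2* were higher at 1 DIV than at 0 DIV in both cultures, at 9.70 and 10.06 for *Ddit3* and 8.15 and 9.12 for *Stc2*.

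**Figure D3:**
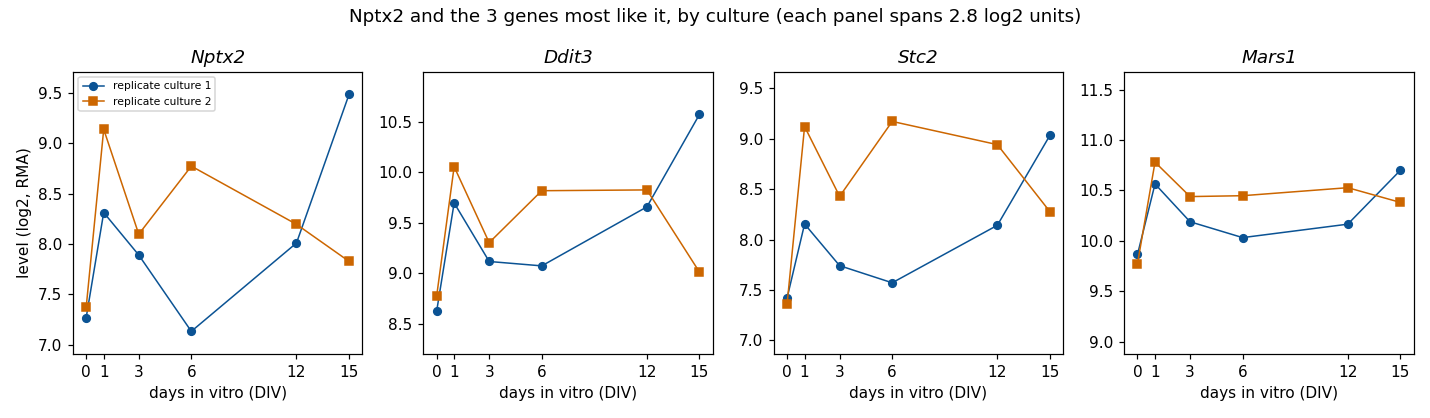
Level (log2, RMA) of Nptx2 and of the 3 genes with the highest correlation with it, against days in vitro, with circles and a blue line for replicate culture 1 and squares and an orange line for replicate culture 2. In all 4 genes culture 2 was the higher at 6 DIV and culture 1 at 15 DIV. The 3 genes were picked by correlation over these same arrays, so this shared order is no separate observation.

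Activity-regulated genes stood beside *Nptx2* as a list of 15. By limma between 0 and 15 DIV, 3 were higher, among them *Egr3* (2.52, log2, adjusted p = 1.7e-04), and 2 lower, *Dusp1* (-1.86, adjusted p = 0.011) and *Ier2* (-1.45, adjusted p = 0.021), counts near the 16.4% and 8.43% of all genes. In the F test over all times *Egr3* (adjusted p = 0.0012) and *Dusp1* (0.029) passed and *Ier2* (0.070) did not. The summed level of the list was 112 to 131 at 0 DIV and 117 to 130 at 15 DIV. Its average level was 7.42 in culture 1 and 8.39 in culture 2 at 6 DIV, and 8.69 and 7.81 at 15 DIV, the order that *Nptx2* had. At 0 DIV the average was 7.44 in culture 1 and 8.75 in culture 2, where *Nptx2* read 7.27 and 7.37. Their part in the course of *Nptx2* was not tested.

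The relatives outside the 8 genes and the partners of the encoded proteins were not selected by the rule, and their calls by limma are read. Of 7 relatives, 1 was higher at 15 DIV than at 0 DIV, 1 was lower and 5 did not pass, where 16.4% of all genes were higher and 8.43% lower. These counts are near those shares. *C1ql1*, the C1q-like gene of climbing fibres in the cerebellum, rose by 1.49 ± 0.18 (log2 ± SE, adjusted p = 2.2e-04), from 7.36 in culture 1 and 7.13 in culture 2 to 9.01 and 8.46. It rests on 1 of 2 probesets, and with both the difference was 0.88 (adjusted p = 0.0011). The long pentraxin *Ptx3* fell by 1.16 ± 0.26 (adjusted p = 0.0080), and did not pass with all its probesets (-0.37, adjusted p = 0.23), without the 0 DIV array of culture 1 (0.091) or without either 15 DIV array (0.051 and 0.057). *Ptx3* also did not pass the F test over all times (adjusted p = 0.081), and it lay below the median level of the array in every array. The differences of the relatives not called between 0 and 15 DIV were 0.36 for *C1ql4*, 0.32 for *Cbln3*, 0.13 for *Ptx4*, -0.02 for *Apcs* and -0.58 for *Crp*.

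Of 6 genes listed as partners of the C1q-like proteins, 4 rose, 1 fell and 1 did not pass. The shares over all genes were 16.4% higher and 8.43% lower. The list counts *Adgrb1* and *Adgrb2* as relatives of the receptor gene *Adgrb3*, beside that gene itself. The adhesion receptors *Adgrb1* (1.55 ± 0.18, log2 ± SE, adjusted p = 1.3e-04) and *Adgrb2* (1.23 ± 0.20, adjusted p = 0.0011) rose, while the difference of *Adgrb3*, the best known C1q-like receptor of this family, was 0.23 ± 0.19 (adjusted p = 0.44). Kainate receptor subunits that C1QL2 and C1QL3 bind at mossy fibre synapses in mice went opposite ways, with *Grik4* higher by 1.28 ± 0.26 (adjusted p = 0.0043) and *Grik2* changed by -1.01 ± 0.22 (adjusted p = 0.0075). *Nrxn3*, a presynaptic neurexin shared with the cerebellins, rose by 0.97 ± 0.18 (adjusted p = 0.0030). The call of *Grik2* was lost without the 0 DIV array (adjusted p = 0.092) or the 15 DIV array of culture 1 (0.11).

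Of 5 partners of the cerebellins measured, 3 rose and 2 fell, where 16.4% of all genes were higher and 8.43% lower. *Grid1*, the delta glutamate receptor of the forebrain, rose by 2.34 ± 0.21 (log2 ± SE, adjusted p = 3.3e-05), and *Nrxn2* by 1.32 ± 0.18 (adjusted p = 3.8e-04), beside *Nrxn3*. Both partners that are particular to *Cbln4* in this list, *Dcc* (-0.97 ± 0.17, adjusted p = 0.0019) and *Neo1* (-0.68 ± 0.21, adjusted p = 0.038), fell. In the F test over all times *Dcc* passed (adjusted p = 0.0010) and *Neo1* did not (0.15). The call of *Neo1* was lost in 9 of 20 alternative settings, without the replicate block among them (adjusted p = 0.13) and 7 that left out 1 array.

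Of 6 partners of the pentraxins, 3 rose, none fell and 3 did not pass, against 16.4% higher and 8.43% lower over all genes. The AMPA receptor subunits *Gria3* (1.01 ± 0.20, log2 ± SE, adjusted p = 0.0036), *Gria1* (0.86 ± 0.18, adjusted p = 0.0057) and *Gria4* (0.66 ± 0.22, adjusted p = 0.048) rose. In the F test over all times *Gria3* (adjusted p = 0.0082) and *Gria1* (0.019) passed and *Gria4* (0.053) did not. The call of *Gria1* was lost without the 0 DIV array of culture 1 (adjusted p = 0.060) or the 15 DIV array of culture 2 (0.058). The call of *Gria4* was lost in 12 of 20 alternative settings, without the replicate block among them (adjusted p = 0.14) and 8 that left out 1 array. The difference of *Gria2* was -0.22 ± 0.21 (adjusted p = 0.51), that of *Adam17*, a protease, -0.15, and that of *Rcn2*, a calcium-binding protein of the endoplasmic reticulum, 0.18.

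**Figure D4:**
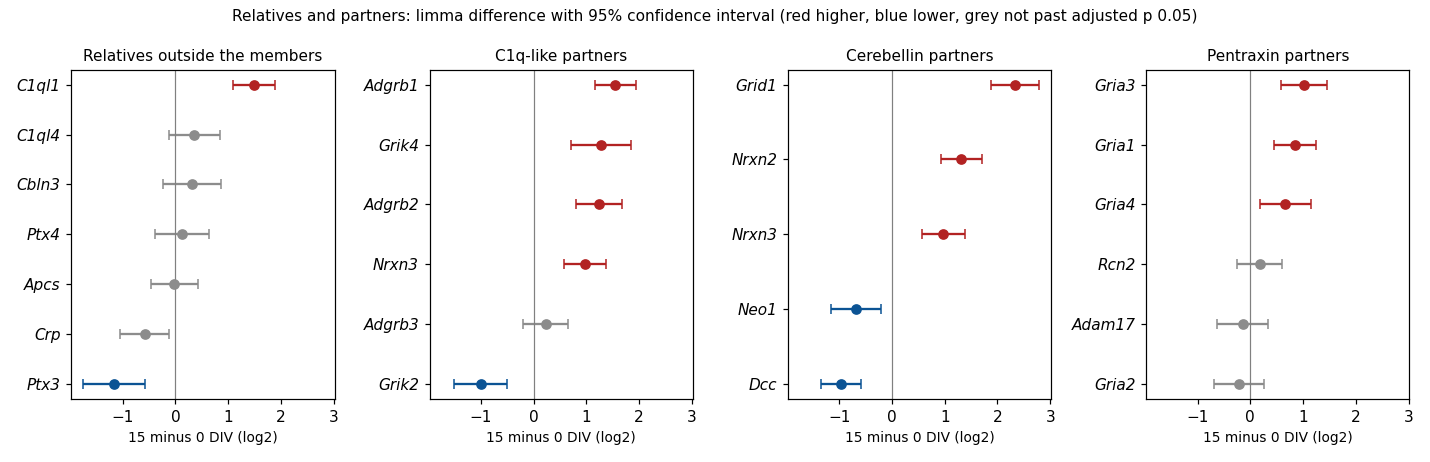
Difference between 15 and 0 DIV (log2) with its 95% confidence interval from limma for relatives outside the 8 genes and for genes listed as partners of each family. Colours are red where higher, blue where lower and grey where not past an adjusted p of 0.05. Nrxn3 stands in both the C1q-like and the cerebellin panel. Grid1 had the largest difference, 2.34, and Ptx3 the lowest, -1.16.

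Other secreted organisers of synapses were set beside the 8 genes as a list of 21, of which 6 rose, 4 fell and 11 did not pass. Over all genes 16.4% were higher and 8.43% lower. *Lgi2* (3.86 ± 0.48, log2 ± SE, adjusted p = 2.4e-04), *Lgi1* (2.77 ± 0.32, adjusted p = 1.6e-04) and *Lgi3* (2.25 ± 0.21, adjusted p = 4.6e-05), of a family of secreted leucine-rich proteins that bind ADAM receptors, rose, as did *Sparcl1*, an astrocyte product (2.27 ± 0.20, adjusted p = 3.5e-05). *Thbs1* (-1.39 ± 0.32, adjusted p = 0.0091), *Thbs3* (-1.36 ± 0.27, adjusted p = 0.0037), *Fgf7* (-1.15 ± 0.25, adjusted p = 0.0065) and *Agrn* (-0.65 ± 0.20, adjusted p = 0.033) fell. The calls of *Thbs1*, *Thbs3* and *Agrn* were lost without the 15 DIV array of culture 1 (adjusted p = 0.12, 0.052 and 0.25), and that of *Fgf7* without the 15 DIV array of culture 2 (adjusted p = 0.059). Without the 0 DIV array of culture 1, *Thbs1* (0.096), *Fgf7* (0.064) and *Agrn* (0.19) did not pass, nor did *Bdnf* (0.051) and *Olfm1* (0.13), which were called higher with all arrays. *Olfm1* also did not pass under quantile normalization (0.095) or with each array centred on its median (0.051). *Agrn* did not pass in 6 of the 12 settings that left out 1 array, *Bdnf* in 3 and *Olfm1* in 2. Of the 11 that did not pass, *Reln*, the gene of the extracellular protein reelin (-1.03 ± 0.34, adjusted p = 0.051), changed its call in 12 of 20 alternative settings and *Olfm3* (1.24 ± 0.50, adjusted p = 0.094) in 6. The median difference of the list was 0.22, against 0.01 over all genes. The F test over all times was passed by 8 of the 21. Of the genes called between 0 and 15 DIV, *Fgf7* (adjusted p = 0.077), *Agrn* (0.14), *Bdnf* (0.051) and *Olfm1* (0.081) did not pass it. *Sparc* (0.0037) and *Gpc4* (0.0086), not called between 0 and 15 DIV, passed it.

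Markers of cell types moved over the same time, in which 16.4% of all genes were called higher and 8.43% lower. Between 0 and 15 DIV by limma, 4 of 7 pan-neuronal markers rose and none fell (summed level 73.2 to 74.0 at 0 DIV and 82.0 to 82.7 at 15 DIV), as did 9 of 10 markers of GABAergic interneurons (81.1 to 83.9 and 97.1 to 98.9). So did 5 of 7 astrocyte markers (50.3 to 52.4 and 65.4 to 70.3) and 6 of 7 of the oligodendrocyte lineage (48.6 to 49.2 and 62.7 to 64.6). Of the microglial markers 5 of 7 fell (54.3 to 54.5 and 45.2 to 45.7), as did 6 of 6 endothelial and mural markers (44.9 to 45.8 and 37.0 to 37.4). The median level of an array was 7.35 to 7.57, and r between the cultures of a time was 0.944 to 0.979.

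The dentate granule cell, where *C1ql2* and *C1ql3* are known in mice, has markers that went both ways. Of 6, *Calb1* (2.96, log2, adjusted p = 0.0013) and *Trpc6* (1.68, adjusted p = 0.017) rose, while *Prox1*, the transcription factor that defines these cells, changed by -2.28 (adjusted p = 7.0e-04). The summed level of the 6 was 39.8 to 40.2 at 0 DIV and 42.0 to 43.1 at 15 DIV. Over all genes 16.4% were higher and 8.43% lower. Of 8 measured markers of CA1 and CA3 pyramidal cells, 3 rose, among them *Coch* (2.57, adjusted p = 1.3e-05), and 1 fell, *Mpped1* (-0.75, adjusted p = 0.041), with a summed level of 68.5 to 68.9 at 0 DIV and 74.9 to 75.6 at 15 DIV.

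Markers of several cell types read apart between the cultures, as did *Cbln4* and *Cbln2*, which did not pass by limma. For astrocytes their average level was 8.61 in culture 1 and 7.03 in culture 2 on day 3, 9.58 and 8.28 on day 6, 10.26 and 8.96 on day 12, and 10.05 and 9.34 on day 15. Culture 1 was the higher at each of these times and on day 1 (7.66 and 7.27), while at 0 DIV culture 2 was (7.19 and 7.48). Between cultures by limma only *Aldh1l1* (adjusted p = 0.047) and *Aldoc* (0.037) passed among the 7 astrocyte markers, both lower in culture 2. The average of the oligodendrocyte lineage markers was 7.03 in culture 1 and 6.46 in culture 2 on day 1, and 7.77 and 6.91 on day 3. It was 8.55 and 7.75 on day 6, 8.89 and 8.59 on day 12, and 9.22 and 8.95 on day 15. Of these 7 markers only *Mbp* passed between cultures by limma (adjusted p = 0.041), lower in culture 2. Among neuronal markers, *Cck* was lower in culture 2 at all 6 times, by 1.59 (log2, adjusted p = 0.0011 by limma), and so was *Calb1*, by 1.58 (adjusted p = 0.013). No other marker on the interneuron, dentate granule cell or pan-neuronal lists passed, and their differences had either sign. Of the pyramidal cell markers only *Bok* passed (-0.51, adjusted p = 0.032). The part of the cell types in the courses of the 8 genes was not tested.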

How the data were processed

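The deposited values are log2 expression values that the authors made with RMA, which corrects the background and normalizes between arrays, for 241576 probesets on 12 arrays. The labels and the methods name different labelling kits for the 25 ng of RNA amplified. No genome build comes with the probesets, so no gene positions are given.

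The probe annotation assigned 1 symbol to 212138 probesets, several to 4672 and none to 24766, and only the first were used, with 2743 outdated symbols updated. As in the methods, for each gene the 50% of its probesets whose interquartile range was largest were summarised by median polish, which gave 20358 genes, 3461 of them from a single probeset. Each gene was fitted in limma 3.58.1 (R 4.3.3) on time (a factor) and replicate (a block), with 5 residual degrees of freedom, and p-values were adjusted over all genes by Benjamini-Hochberg, at a threshold of 0.05. The fit was tested on simulated data. A first simulation with a larger noise recovered fewer of the changes than had been asked for, and the noise was then set to the residual spread of the fit. The replicate numbers of the labels were taken to pair the arrays. Deviations of the replicates correlated at every pair of times (median 0.30, range 0.11 to 0.46 over 15 pairs). This does not tell a shared culture from a shared batch. For arrays, their number limits the precision.

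The 8 genes, the gene lists, the tests and the motifs were chosen with earlier results of these data known. Named genes were the 8, all relatives and partners, up to 4 genes of each other list with the largest called change, any called against its majority, and the 3 genes most correlated with each of the 8. *Reln*, *Olfm1*, *Olfm3*, *Bdnf*, *Cck*, *Calb1* and *Bok* between cultures, the summed and averaged list levels, the gaps between cultures and the array values of correlated genes were picked after values were seen. Promoters came from RefSeq tables. Python 3.11.15 was used for promoters and figures, with matplotlib 3.10.9.

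The alternatives were the fit without the block, all probesets, the mean of probesets, quantile normalization, centring on the median, removal of low-signal genes, robust variances with an intensity trend, the 0 and 15 DIV arrays alone, and leaving out each array.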

Additional observations from a re-analysis of the deposited data

How the results depend on the processing

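The 8 genes kept the sign of their difference between 15 and 0 DIV under all 20 alternatives. With all probesets the difference was 2.83 for *C1ql2*, 2.54 for *C1ql3* and 0.58 for *Nptx2* (log2), the difference of *Nptxr* between cultures turned to 0.032, and 935 genes differed between cultures, against 1555. Without the replicate block 1115 genes were lower at 15 DIV, against 1717 with it, and *Neo1*, *Gria4* and *Agrn* lost their calls. *Olfm1* lost its call under quantile normalization and centring. Quantile normalization made 2878 genes lower and centring 2747, with the share of higher genes among calls at 48.6% and 49.1%, against 66.0%. Centring put the median difference of all genes at -0.15 and removal of low-signal genes at 0.11, against 0.01. With an intensity trend and robust variances, 2434 genes differed between cultures. Leaving out 1 array gave 4.08 to 5.12 for *C1ql2*, 2.73 to 3.47 for *C1ql3*, 1.59 to 2.40 for *Nptx1* and 0.21 to 2.46 for *Nptx2*. It gave 2032 to 3783 genes higher and 607 to 2181 lower at 15 DIV, 2 to 10 lower among relatives, partners and other organisers, and 373 to 1622 that differed between cultures. The lowest counts of higher and lower genes came without the 15 DIV array of culture 1. The causes were not tested. With 2 arrays a time and no detection call, small differences of dim genes cannot be resolved. Of the calls of relatives, partners and other organisers under the alternatives, 798 were as reported, 25 were gained and 48 were lost. Calls over time of activity-regulated genes and cell type markers were repeated only for genes that also stand on those lists. The calls of markers between cultures were not repeated.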

Other observations

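The subunits of complement C1q itself, whose fold the C1q-like proteins and cerebellins share and which microglia make, were lower at 15 DIV than at 0 DIV, while *C1ql2* and *C1ql3* were higher. Between 0 and 15 DIV, *C1qb* changed by -1.25 ± 0.25 (log2 ± SE, adjusted p = 0.0042 by limma), *C1qc* from a mean of 6.36 to 5.36 (adjusted p = 0.039) and *C1qa* by -0.69 ± 0.21 (adjusted p = 0.034). By the F test over all times *C1qb* passed (adjusted p = 0.034), but *C1qa* (0.14) and *C1qc* (0.097) did not. *C1qc* read 7.09 in culture 1 at 3 DIV, above both of its 0 DIV values. These calls were not repeated under the alternatives. The differences of *C3* (0.18) and *C4b* (1.10, adjusted p = 0.22) did not pass. The microglial markers *Cx3cr1* (-2.60), *Ctss* (-2.31) and *Tyrobp* (-2.24) also fell, the largest changes on their list of 7. On that list *P2ry12* (-0.37, adjusted p = 0.21 by limma) and *Aif1* (0.15, adjusted p = 0.76) did not pass.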
